A study of Mus musculus with 4 samples.

Results

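The 10 genes described here encode the mouse inositol phosphate kinases other than IPMK (inositol polyphosphate multikinase): Itpka, Itpkb, Itpkc, Itpk1, Ippk, Ip6k1, Ip6k2, Ip6k3, Ppip5k1 and Ppip5k2. They were chosen by name, as the enzymes that act before, beside and after IPMK, and found by their gene symbol in the array annotation. Each had 1 probe set, so they make up 10 of 33793 probe sets. Right hippocampi of behaviorally naive male mice, taken at postnatal day 90, gave the RNA for 4 Affymetrix Mouse Gene 2.0 ST arrays, 1 mouse per array. Of these, 1 pair was labelled IPMK WT and 1 pair IPMK cKO. By the study's methods, both genotypes were homozygous for a floxed Ipmk allele. IPMK cKO mice also carried CaMKII-Cre, and their IPMK WT littermates did not. This driver deletes the gene in excitatory neurons of the postnatal forebrain, so interneurons, glia and vessels of the same tissue keep it. The values are log2 signals after RMA (robust multi-array averaging), which brings the probe signals of all arrays to 1 distribution before they are summarized. The array medians after summarization were 5.10 to 5.15. The text of the study describes more mice per group than the arrays used here.

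Receptor signaling through phospholipase C cuts a membrane lipid into diacylglycerol and the soluble messenger IP3, which opens calcium channels of the endoplasmic reticulum. Kinases then add phosphates to IP3 step by step. The IP3 3-kinases make IP4, IPMK makes IP4 and IP5, IPPK makes IP6, and the IP6 kinases and PPIP5 kinases add further phosphates to make the inositol pyrophosphates IP7 and IP8. ITPK1 enters the same series from another IP3 isomer. In neurons, these molecules have been tied to calcium signals, the actin of dendritic spines and vesicle release. The comparison asks whether any of these neighbouring enzymes differs in mRNA level between the labelled genotypes.

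The deleted gene was read first. The brighter Ipmk probe set read 7.68 and 7.71 in the pair labelled IPMK WT and 8.44 and 8.78 in the pair labelled IPMK cKO. The other read 5.78 and 5.52 against 6.97 and 6.43. Both arrays labelled IPMK cKO were thus the higher ones, against their label, by 0.92 (95% interval 0.54 to 1.29) and 1.05 (95% interval 0.52 to 1.58) on the log2 scale. The sources used here do not say whether these probes lie in the deleted part. Other assays of the same genotypes in the study were not analysed here, and whether labels were exchanged was not tested. All directions below are therefore those of the labels, as IPMK cKO minus IPMK WT. Groups were compared with limma, which draws the variance of a probe set towards a common value, and p-values were adjusted by Benjamini-Hochberg for all 33793 probe sets. The lowest p that an exact permutation test can reach here, with 2 arrays in each group, is 0.33, so the small number of arrays sets the precision.

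None of the 10 kinase genes differed between the pairs labelled IPMK cKO and IPMK WT at an adjusted p under 0.05, and none at an unadjusted p under 0.05. Over all probe sets, 0 (0%) passed in limma once adjusted, and 966 (2.86%) had an unadjusted p under 0.05. Both Ipmk probe sets had an adjusted p of 0.9999 in limma, as did the 10 kinase genes. This was also the lowest adjusted p over all probe sets, so the adjusted p sets no gene apart. Before adjustment, the limma p was 0.0012 and 0.0030 for the Ipmk probe sets. The lowest among the 10 kinase genes was 0.50. LPE, the local pooled error test that the methods name, was rewritten here and passed none of the 10 after or before adjustment, where it passed 2 of all probe sets (0.00592%) after and 386 (1.14%) before. The 10 differences lay between −0.09 and 0.09 on the log2 scale, with 3 genes higher and 7 lower. Their median was −0.016, beside −0.0046 over all probe sets. In size, the median difference of the kinases was 0.050, and 9 of the 10 lay below the median size over all probe sets, 0.088. All probe sets include 29.1% with a mean under 4, where none of the 10 lies. No background of like brightness was taken, so neither this count nor that of the intervals is read as a trait of the kinases. The 95% interval lay within 1.5-fold either way (0.58 on the log2 scale) for 9 of the 10 genes and for 75.2% of all probe sets, so for these 9 a larger difference was outside the interval. Their limits ran from 0.734-fold to 1.32-fold. The exception was Itpkb, with 0.720-fold to 1.56-fold. Without replicate 1 of the pair labelled IPMK WT, 4 genes had an interval within 1.5-fold. No share of all probe sets was taken for that setting. With a t-test on all 4 arrays, which uses each gene's own variance, 6 genes had such an interval, again without a share of all probe sets. The upper limit of all 10 intervals was below 0.92, the difference read for Ipmk, which has its own interval of 0.54 to 1.29. The upper limit of Itpkb, 0.64, lay inside that interval.

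**Figure D1:**
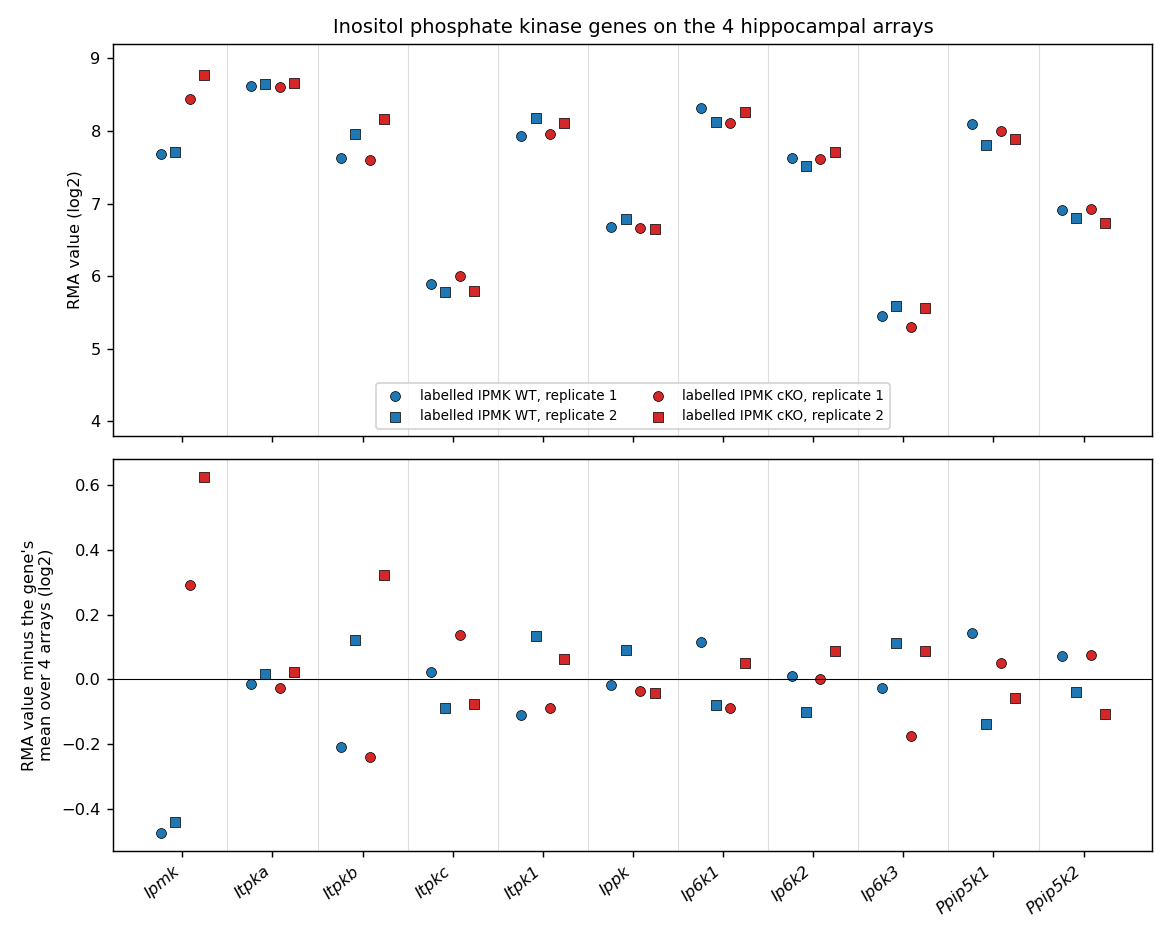
RMA values on the log2 scale for Ipmk and the 10 other kinase genes, 1 point per array (blue, labelled IPMK WT; red, labelled IPMK cKO; circles, replicate 1; squares, replicate 2). The upper panel gives the value and the lower panel the value minus the gene's own mean over the 4 arrays. Ipmk shows a wide gap between colours and Ippk a narrow one. Circles and squares are apart most widely for Itpkb, and also for Itpka, Itpkc, Itpk1, Ip6k3, Ppip5k1 and Ppip5k2.

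IP3 3-kinases stand at the branch point where IP3 leaves calcium release and enters the higher inositol phosphates. Itpka, the form concentrated in dendritic spines of forebrain neurons, where its protein also binds actin filaments, read 8.62 and 8.65 in the pair labelled IPMK WT and 8.61 and 8.66 in the pair labelled IPMK cKO. All 4 arrays lay within 0.048 of each other, the narrowest range among the 10 genes. The difference was −0.0019 (standard error 0.12, 95% interval −0.29 to 0.29, adjusted p = 0.9999). The array annotation places only Itpka among the 10 in the dendritic spine and in the regulation of synaptic plasticity.

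Itpkb, known in mice for its part in T cell development, varied most. It read 7.63 and 7.96 in the pair labelled IPMK WT and 7.60 and 8.16 in the pair labelled IPMK cKO. Both replicate 2 arrays were high and both replicate 1 arrays low, whatever the label. The difference between labels was 0.08 (standard error 0.22, 95% interval −0.47 to 0.64, adjusted p = 0.9999). Without replicate 1 of the pair labelled IPMK cKO it was 0.36, and without replicate 2 of them −0.20. Itpkc, the third gene of the family, read 5.89 and 5.78 against 6.001 and 5.79, and its groups overlapped. Its difference was 0.06 (standard error 0.14, 95% interval −0.27 to 0.40, adjusted p = 0.9999). In both groups replicate 2 was the lower array, so Itpkc varied in the direction opposite to Itpkb.

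ITPK1 and IPPK act on either side of the step that IPMK catalyses. Itpk1, whose enzyme phosphorylates an IP3 isomer and so feeds IP4 into the pathway, read 7.93 and 8.18 in the pair labelled IPMK WT and 7.95 and 8.11 in the pair labelled IPMK cKO. Replicate 2 was again the higher array in both groups, and the groups overlapped. The difference was −0.026 (standard error 0.14, 95% interval −0.38 to 0.33, adjusted p = 0.9999). Ippk encodes the enzyme that turns IP5, the product of IPMK, into IP6. It read 6.68 and 6.79 against 6.66 and 6.66. It was the only 1 of the 10 genes whose groups did not overlap, with both arrays labelled IPMK cKO the lower ones, where 14.8% of all probe sets were lower in this way and 27.2% were apart in either direction. The groups were 0.018 apart, and the arrays labelled IPMK WT differed by 0.11 from each other. The difference was −0.08 (standard error 0.12, 95% interval −0.37 to 0.22, adjusted p = 0.9999), and after each array was centred on its median the groups overlapped. In fold terms the interval of Ippk ran from 0.772 to 1.17.

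**Figure D2:**
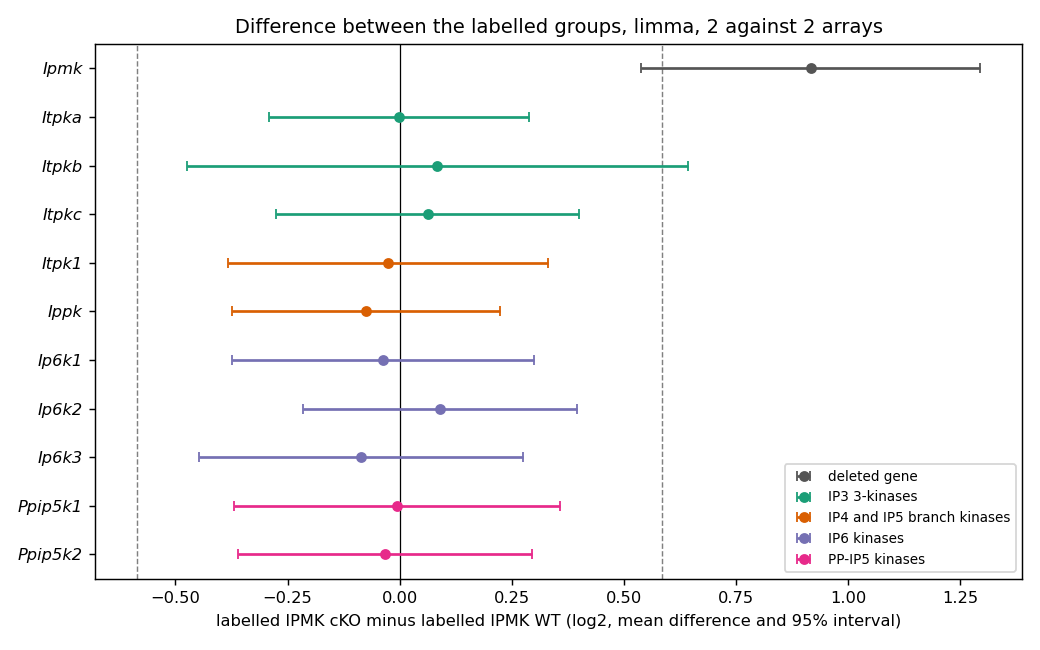
Mean difference, labelled IPMK cKO minus labelled IPMK WT on the log2 scale, with its 95% interval from limma for 2 against 2 arrays; colours give the enzyme classes and dashed lines 1.5-fold either way. The intervals, which are not adjusted for the number of probe sets, include 0 for the 10 kinases and not for Ipmk. The limma adjusted p was 0.9999 for Ipmk and for each kinase. Only the interval of Itpkb among the 10 crosses a dashed line.

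IP6 kinases make 5-IP7, the main inositol pyrophosphate of mammalian cells. Ip6k1 read 8.32 and 8.13 in the pair labelled IPMK WT and 8.12 and 8.26 in the pair labelled IPMK cKO. The lowest and the highest array thus carried opposite labels, with the remaining pair between them. The difference was −0.037 (standard error 0.14, 95% interval −0.37 to 0.30, adjusted p = 0.9999). Ip6k2, whose product is known to promote cell death, read 7.63 and 7.52 against 7.62 and 7.71. Its difference of 0.09 (standard error 0.12, 95% interval −0.22 to 0.39, adjusted p = 0.9999) was the highest of the 10, and the groups overlapped. Leaving out 1 array at a time moved it between 0.03 and 0.15. Ip6k3, the form known from muscle and from cerebellar Purkinje cells, read 5.45 and 5.59 against 5.30 and 5.56, the dimmest signal of the 10. Its difference of −0.09 (standard error 0.15, 95% interval −0.45 to 0.27, adjusted p = 0.9999) was the lowest of the 10. Replicate 1 of the pair labelled IPMK cKO was the lowest array, and without it the difference was 0.045.

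PPIP5 kinases phosphorylate IP7 to IP8, and the same proteins carry a phosphatase domain that removes that phosphate. Ppip5k1 read 8.09 and 7.81 in the pair labelled IPMK WT and 8.001 and 7.89 in the pair labelled IPMK cKO. The arrays labelled IPMK cKO lay between the other pair. The difference was −0.0054 (standard error 0.15, 95% interval −0.37 to 0.36, adjusted p = 0.9999). Ppip5k2 read 6.91 and 6.80 against 6.92 and 6.74, a difference of −0.032 (standard error 0.13, 95% interval −0.36 to 0.30, adjusted p = 0.9999). In both genes replicate 2 was the lower array of each group, and the groups overlapped.

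The levels of different genes are not an order of mRNA abundance, since each probe set has probes of its own. As a description, the signal of Itpka, averaging 8.64 over the 4 arrays, was brighter than 93.4% of probe sets. That of Ip6k3, averaging 5.47, was brighter than 55.7%. None of the 10 had a mean under 4, where 29.1% of all probe sets lie. Ip6k3 and Itpkc, the latter averaging 5.86, lay nearest to the array medians of 5.10 to 5.15. Whether their signal stood above background was not tested. Each gene was read by 18 to 34 probes, and the annotation marks all 10 probe sets as unique and none as cross-hybridizing.

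The array annotation lists further features of the 10, of which the ATP and kinase terms follow from their choice as kinases. The annotation gives ATP binding to all 10 and the term for IP3 3-kinase activity to 6, namely Itpka, Itpkb, Itpkc and the 3 IP6 kinase genes. Calmodulin binding is listed for Itpka and Itpkc, acid phosphatase activity for Ppip5k1 and Ppip5k2, and the nucleus for 6 genes, among them Ippk and the IP6 kinases. The genes lie on 7 chromosomes, by the coordinates that come with the arrays. Their genome build is not given in the sources used here. Ip6k1 (chromosome 9, 108002589 to 108048782) and Ip6k2 (108783796 to 108806333) are both on the plus strand, 735 kb apart. Their differences had opposite signs. Itpka (chromosome 2, 119742337 to 119751263) and Ppip5k1 (121310561 to 121355396) lie 1.56 Mb apart on opposite strands. Itpkb (180330476 to 180424802) and Ppip5k2 (97706046 to 97770411) are both on chromosome 1 but 82.6 Mb apart. Itpkc lies on chromosome 7 (27207170 to 27228628), Itpk1 on chromosome 12 (102568583 to 102704869), Ippk on chromosome 13 (49421278 to 49462990) and Ip6k3 on chromosome 17 (27143969 to 27167764).

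For 7 of the 10 kinases the mean difference between replicate numbers was larger in size than that between labels. The same held for 59.6% of all probe sets, whose median size was 0.12 between replicate numbers and 0.088 between labels. The mice with the same replicate number have neighbouring animal numbers in the labels and controls were littermates, but the sources do not say which mice shared a litter. Averaged over both groups, Itpkb was higher by 0.45 in the replicate 2 arrays, Ip6k3 by 0.20 and Itpk1 by 0.20. Ppip5k1 differed by −0.20, Itpkc by −0.16 and Ppip5k2 by −0.15. Replicate 2 lay on the same side of replicate 1 in both groups for 7 of the 10 genes (4 higher, 3 lower), and for 58.9% of all probe sets. The difference between labels had the same sign within both replicate numbers for 3 of the 10, Itpkc, Ippk and Ip6k3. The share over all probe sets was not computed for this count, so it is not read as a trait of the kinases.

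Markers of glia and of excitatory neurons also moved with the replicate number. Of 8 astrocyte markers, 8 were higher in replicate 2 of both groups, with a median difference of 0.50. The log2 of their summed signal was 12.2 and 12.6 in the pair labelled IPMK WT and 12.2 and 12.6 in the pair labelled IPMK cKO. Microglia markers were higher in replicate 2 of both groups in 8 of 9 genes (median 0.40, summed signal 10.7 and 11.1 against 10.6 and 11.1). Oligodendrocyte markers were higher in 8 of 8 (median 0.22, summed signal 13.3 and 13.5 against 13.3 and 13.5). Excitatory neuron markers were lower in replicate 2 of both groups in 5 of 7 genes, with a median of −0.19, and their summed signal was 13.3 and 13.3 against 13.4 and 13.2. The other lists had no common side, with medians of −0.015 for GABA neurons (2 of 7 genes higher and 2 lower in replicate 2 of both groups), −0.06 for endothelium (1 of 6 higher and 3 lower) and 0.18 for the choroid plexus (0 of 5 on the same side in both groups). The part of glia and neurons in the values of Itpkb and of the other kinases was not tested. In whole tissue, fewer cells of a type and less RNA per cell cannot be told apart.

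Between labels, the glial and excitatory neuron lists differed less than between replicate numbers. The medians by label were 0.06 for astrocytes, −0.036 for microglia, −0.034 for oligodendrocytes, −0.017 for excitatory neurons, −0.10 for GABA neurons and −0.10 for endothelium. The lowest was that of the choroid plexus, the epithelium that borders the hippocampus in the ventricle, with a median of −0.37 over 5 genes. Replicate 1 of the pair labelled IPMK cKO had its lowest summed signal, 12.5 on the log2 scale, against 13.0, 12.8 and 13.0 in the other arrays. None of these markers passed an unadjusted p under 0.05 in limma, where 2.86% of all probe sets did. The excitatory neuron markers had mean log2 values between 8.18 and 11.9, which by themselves do not check the labelled tissue.

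**Figure D3:**
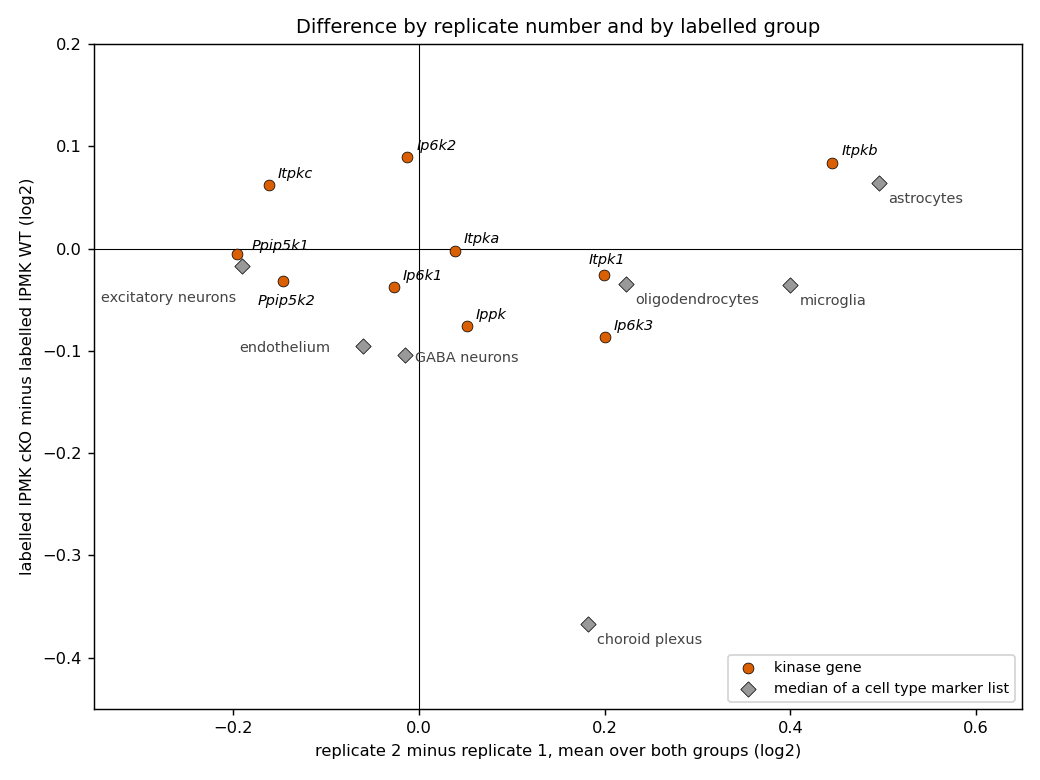
Each kinase gene (circles) and the median of each cell type marker list (diamonds), by the difference replicate 2 minus replicate 1 averaged over both groups (x, log2) and the difference labelled IPMK cKO minus labelled IPMK WT (y, log2). The kinases run from −0.20 (Ppip5k1) to 0.45 (Itpkb) on the x axis, while all lie within 0.09 of 0 on the y axis. Nearness of a gene to a list was not tested.

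Further genes of soluble inositol phosphate metabolism were read in the same fit. Of 18 such genes, 7 were higher and 11 lower on average in the pair labelled IPMK cKO, at a median difference of −0.027 and a range from −0.14 to 0.23. None of the 18 passed at an adjusted or an unadjusted p under 0.05 in limma, where 0% and 2.86% of all probe sets did. Groups did not overlap for 2 of the 18, beside 27.2% of all probe sets. The 95% interval lay within 1.5-fold for 17 of the 18, beside 75.2% of all probe sets.

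Phosphatases that take inositol phosphates apart had 3 higher and 4 lower means among 7 genes. Impa1 encodes the lithium-sensitive monophosphatase that returns free inositol, and read 7.89 and 8.04 in the pair labelled IPMK WT and 7.94 and 7.82 in the pair labelled IPMK cKO. Bpnt1, a related lithium-sensitive enzyme, read 7.35 and 7.33 against 7.38 and 7.44. The groups of Bpnt1 did not overlap, by 0.027, where 12.4% of all probe sets were apart in that direction. The differences were −0.09 (standard error 0.13) and 0.07 (standard error 0.12).

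Hydrolases of the inositol pyrophosphates, which reverse the IP6 kinases and PPIP5 kinases, had 1 higher and 3 lower means among 4 genes. Nudt10 read 6.20 and 6.26 in the pair labelled IPMK WT and 6.05 and 6.17 in the pair labelled IPMK cKO, with no overlap, as in the 14.8% of all probe sets that were lower in this way, and a difference of −0.12 (standard error 0.12, 95% interval −0.42 to 0.19, adjusted p = 0.9999). Nudt3 read 8.40 and 8.50 against 8.28 and 8.41, a difference of −0.11 (standard error 0.13), and its groups overlapped by a narrow margin.

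Inositol supply had 2 higher and 2 lower means among 4 genes. Slc5a11, a sodium-coupled inositol carrier, read 5.39 and 5.15 in the pair labelled IPMK WT and 5.36 and 5.63 in the pair labelled IPMK cKO. Its difference of 0.23 (standard error 0.16, 95% interval −0.16 to 0.62) was the largest of the 18 and the only interval that crossed 1.5-fold. Slc5a3, the related carrier that brain cells use to take up inositol as an osmolyte, read 7.42 and 7.53 against 7.25 and 7.43, a difference of −0.14 (standard error 0.13). Both genes overlapped between groups.

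IP3 receptors, the calcium channels on which the substrate of the IP3 3-kinases acts, had 1 higher and 2 lower means among 3 genes. Itpr1, the main form in neurons, read 9.77 and 9.72 in the pair labelled IPMK WT and 9.74 and 9.59 in the pair labelled IPMK cKO, a difference of −0.08 (standard error 0.12). Itpr2 read 6.71 and 6.81 against 6.65 and 6.78, a difference of −0.049 (standard error 0.12). Neither separated the groups.

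**Figure D4:**
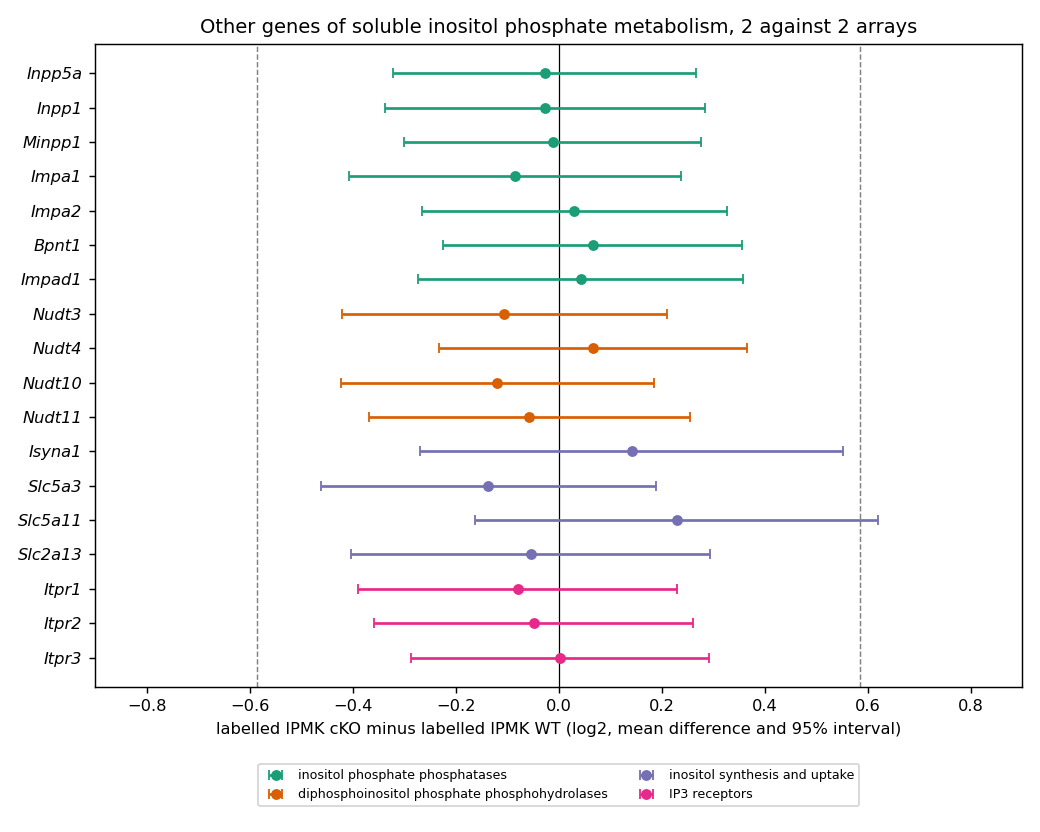
Mean difference, labelled IPMK cKO minus labelled IPMK WT on the log2 scale, with its 95% interval from limma, for 18 further genes in 4 classes (colours); dashed lines mark 1.5-fold either way. All 18 intervals include 0, and that of Slc5a11 alone passes a dashed line.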

How the data were processed

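RNA was hybridized to Affymetrix Mouse Gene 2.0 ST arrays. The authors extracted the scans with GeneChip Command Console and made gene-level log2 values by RMA in Expression Console, and these deposited log2 values were used as given. Background and total signal therefore cannot be examined again. The table holds 33793 probe sets (5 further lines name no probe set), and 4 columns that repeat the per-array values were not used. Columns with the authors' fold, LPE score, p-value, means and SDs were also left out. The series matrix differed by at most 8.88e-16.

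Groups follow the sample titles. All probe sets were fitted in R 4.3.3 with limma 3.58.1 (lmFit, eBayes, prior degrees of freedom 3.69, prior variance 0.0207) without a block or a filter on dim probe sets. Intervals are at 95%. The fits were run on simulated data with independent arrays and variances drawn from the limma prior. That setting holds no shared replicate effect, so it does not check the fits against one. Alternatives were a trended or robust prior, a replicate block, centring, quantile normalization applied again, removal of dim probe sets (means under 4 or 6), unique probe sets, leaving out each array, the series matrix, averaging the probe sets of each gene, the LPE test of the methods (rewritten from its description, 100 bins, span 0.2) and the methods' test of averages. Named were all members, Ipmk and, in each pathway list, each gene that passed or else the 2 lowest by p. Members and lists were chosen with earlier results of these data known. Replicates are separate mice; the labels number the animals but name no litter. Figures used Python 3.11.15 with matplotlib 3.10.9.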

Additional observations from a re-analysis of the deposited data

How the results depend on the processing

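None of the 10 kinase genes passed an adjusted or an unadjusted p under 0.05 under any of the 16 alternatives, and the lowest adjusted p among them was 0.974. Of the 16, 10 leave the difference itself as it is. Under the other 6 (centring, quantile normalization and each array left out), 44 of 60 values kept their sign. Median centring gave 0.019 for Itpka and 0.015 for Ppip5k1, and 0 genes with groups apart. The other 14 changes of sign came with 1 array left out, where differences ranged from −0.026 to 0.022 for Itpka, −0.20 to 0.36 for Itpkb, −0.044 to 0.17 for Itpkc, −0.15 to 0.10 for Itpk1, −0.14 to 0.060 for Ip6k1, −0.22 to 0.045 for Ip6k3, −0.15 to 0.14 for Ppip5k1 and −0.12 to 0.059 for Ppip5k2. With 1 array left out, 4 to 7 genes had groups apart, since a lone array overlaps less easily, and 4 to 9 an interval within 1.5-fold, the fewest without replicate 1 of the pair labelled IPMK WT. No share of all probe sets was taken with 1 array left out, so these counts are not read as a result about the kinases. With 1 array left out, the difference in Ipmk was 0.75 to 1.08. A replicate block gave 0 called kinases, 10 intervals within 1.5-fold and an Ipmk difference of 0.92. The methods' test of averages, a t-test with each gene's own variance, gave 6 such intervals, and LPE gave 10. No share of all probe sets was taken for the intervals of these settings. The replicate differences of the groups had a correlation of 0.244 over all probe sets. Over all probe sets, LPE called 2, where limma called 0. Within replicate number 1, a value added after the data were seen, Itpkb was at −0.031, Itpk1 at 0.020, Ip6k2 at −0.011 and Ppip5k2 at 0.0040, and within number 2 Itpka was at 0.0077, Ip6k1 at 0.13 and Ppip5k1 at 0.081. The filter at 6 removed Itpkc and Ip6k3. Each kinase has 1 probe set, so averaging probe sets changed none of their differences. Apart from fewer arrays or probe sets, the cause was not tested.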
